A study of Mus musculus with 2 samples.

Results

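Mir132 and Mir212 are neighbouring microRNA genes on the plus strand of chromosome 11, and they are described here as 2 of the 2202 microRNA genes counted in the mouse left cerebral cortex. They were taken by their gene identifiers, ENSMUSG00000065537.2 for Mir132 and ENSMUSG00000065590.1 for Mir212. Small RNA below 30 nt was sequenced from 2 libraries of female B6CASTF1/J mice, an F1 hybrid strain, aged 25 days. The labels number the source animals 03 and 04 but give both the same donor record, and no treatment or genotype differs between the libraries. Whether the libraries come from separate animals rests on these labels, so technical spread and spread between animals cannot be told apart.

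MicroRNAs are cut from a hairpin in a longer primary transcript, and a mature arm guides Argonaute to messenger RNAs that pair with its seed, bases 2 to 8 from the 5′ end. Mir132 and Mir212 are known as targets of the transcription factor CREB, and their shared primary transcript rises in neurons after synaptic activity and neurotrophin signalling. In the cortex they are known for roles in dendrite growth, spine maturation and experience-dependent plasticity.

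The 4 mature arms are shown because the shared seed of the 3p arms makes the genes a family, while differences in the remaining bases can set their reads apart. How single reads were placed was not examined. Sequences are from RefSeq on GRCm38.p6, with the seed in capitals; both genes were found in the table by symbol.
miR-132-3p: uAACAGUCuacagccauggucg
miR-212-3p: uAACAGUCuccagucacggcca
miR-132-5p: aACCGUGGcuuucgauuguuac
miR-212-5p: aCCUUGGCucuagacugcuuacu

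The 3p arms matched at 17 of 22 positions (77.3%). Their differences, counted from 1 at the 5′ end of miR-132-3p and given as the miR-132-3p base, the position and the miR-212-3p base, were A10C, C14U, U17C, U20C and G22A. All 5 lie outside the seed. Among 1738 mature entries of the RefSeq table, the seed of the 3p arms occurred in no other microRNA. The 5p arms had different seeds, each of which was found in no other entry, and matched at 14 of 21 positions (66.7%) when shifted by 1 base. The longest run shared by the 3p arms was 9 bases. No stretch of 18 bases from any of the 4 arms was found on either strand of another gene's transcripts, among 141767 annotated transcripts; unannotated sequence was not examined. Reads that mapped to several loci, which no gene count includes, were 40.3% of all reads for replicate 1 and 39.0% for replicate 2.

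The hairpins are shown, with both mature arms in capitals, because each count joins the arms of one hairpin. Mir132 is at chr11:75173682-75173747 and Mir212 at chr11:75173388-75173478, on the plus strand of GRCm38.
Mir132: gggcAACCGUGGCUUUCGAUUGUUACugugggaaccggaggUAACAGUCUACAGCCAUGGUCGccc
Mir212: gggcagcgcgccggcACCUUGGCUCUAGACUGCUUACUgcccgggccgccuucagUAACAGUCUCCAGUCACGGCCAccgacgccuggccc

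The Mir132 hairpin has 66 bases and the Mir212 hairpin 91. Most of the difference lies outside the arms, with 4 bases before the 5p arm and 3 after the 3p arm in Mir132 against 15 and 14 in Mir212. The stretch between the arms has 15 bases in Mir132 and 17 in Mir212. GC content was 57.6% for Mir132 and 69.2% for Mir212. The predicted minimum folding energy was -37.2 kcal/mol for Mir132 and -41.5 kcal/mol for Mir212. Per base this was -0.56 and -0.46, against a median of -0.43 over the 395 detected microRNA genes, those with 10 counts or more in each library. Of these, 31 had a lower energy per base than Mir132 and 155 a lower one than Mir212. The median length of the detected hairpins was 83 bases. Annotated hairpins differ in the flank they include, so energies per base are not strictly comparable. Base pairs between the arms numbered 17 in Mir132 and 16 in Mir212.

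**Figure D1:**
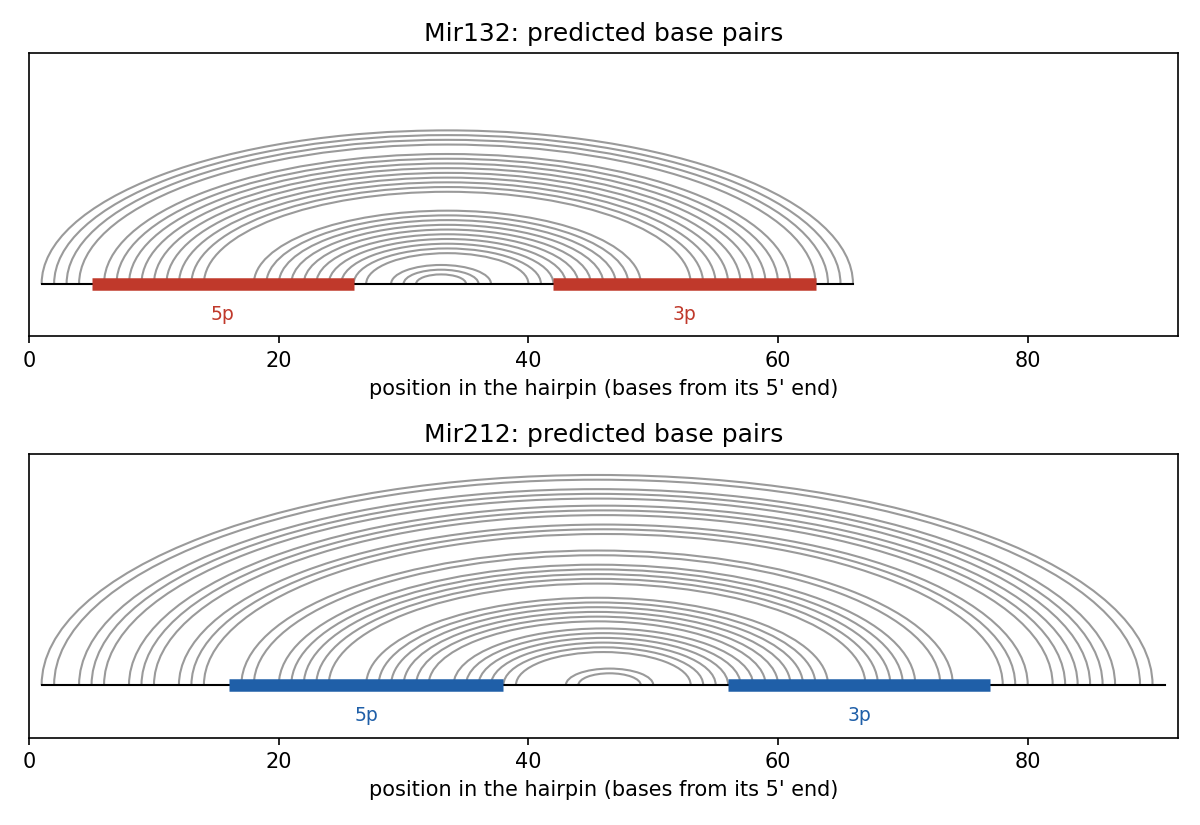
Predicted base pairs of the Mir132 and Mir212 hairpins. The horizontal axis is the position in bases from the 5′ end of each hairpin, each grey arc joins 2 paired bases, and thick bars mark the 5p and 3p arms; both form a single stem, and Mir212 extends further beyond its arms.

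Both hairpins lie on the strand of the noncoding gene 1700016P03Rik, within its first intron of 1380 bases. Mir212 starts 790 bases after exon 1, a gap of 203 bases separates it from Mir132, and exon 2 follows 230 bases after Mir132. No other microRNA gene of the annotation lay within 10000 bases. The nearest protein-coding genes, Hic1 upstream and Ovca2 and Dph1 downstream, are on the minus strand and overlap neither hairpin. In both libraries each gene had 0 counts on the opposite strand. Levels are in CPM, a gene's counts scaled to the library's sum of microRNA gene counts. With 3 counts set as the limit for a count of 0, up to 0.994 CPM in replicate 1 and 0.935 CPM in replicate 2 is allowed. This limit is set otherwise than the two-sided intervals given with levels. Such limits, and the intervals given with levels and ratios, cover counting error only, because reads amplified without molecular identifiers are not independent molecules.

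**Figure D2:**
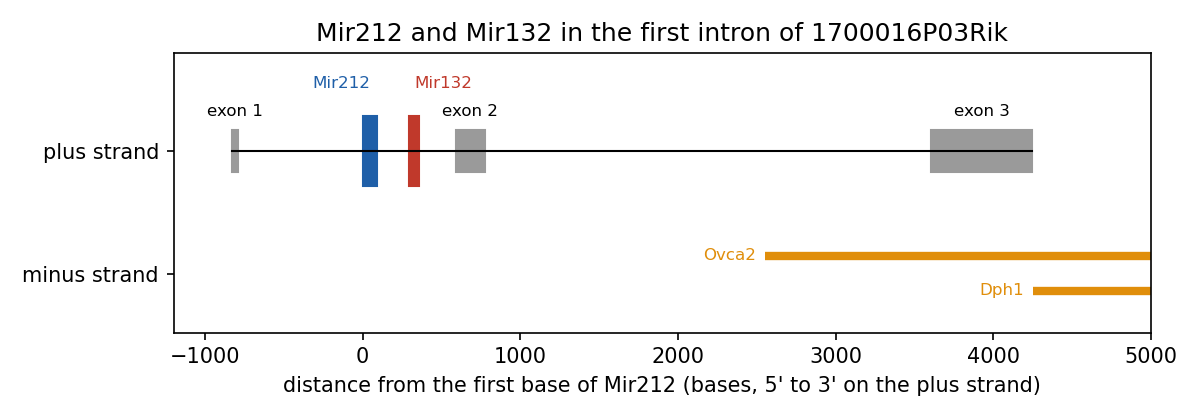
Map of the locus, to scale, with the distance in bases from the start of Mir212 on the horizontal axis. Grey boxes are exons of 1700016P03Rik, blue and red boxes are Mir212 and Mir132, and orange bars are genes on the minus strand, cut off at the right edge; both hairpins sit between exons 1 and 2.

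By counts that leave out reads placed at several loci, Mir132 was among the most abundant microRNA genes of the cortex. Mir212 stood far below it. Mir132 gave 106051 counts in replicate 1 and 106567 in replicate 2, of 3017058 and 3209361 microRNA gene counts. These are levels of 35150.5 CPM (exact Poisson 95% interval 34939 to 35363) and 33205 CPM (33006 to 33405), or 34178 ± 1376 CPM (SD, n = 2). The 2 libraries lay close together, with an SD of 4.02% of the mean and rank 7 of 2202 in each. All levels and ranks here leave out several-loci reads, so genes with copies at other loci may stand too low.

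Mir212 gave 2515 counts in replicate 1 and 5591 in replicate 2. The corresponding levels were 834 CPM (801 to 867) and 1742 CPM (1697 to 1788), or 1288 ± 642 CPM (SD, n = 2). Replicate 2 was the high library, the SD was 49.9% of the mean, and the gene ranked 106 in replicate 1 and 82 in replicate 2. Even at its lower value Mir212 was no rare microRNA here, since the median detected gene was at 101 CPM. Mir212 averaged 12.8 times that median, and Mir132 averaged 340 times.

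Compared with the genes next in level, Mir132 held a distinct place and Mir212 did not. Reads of RNA below 30 nt cover about one mature arm whatever the hairpin's length, so CPM is not divided by length; values per hairpin base are given as well. The 3 genes above Mir132 were Mirlet7i, the Dlk1-Dio3 gene Mir127 and Mir744, and the 3 below were Mirlet7e, Mirlet7d and the Meg3 gene Mir770. All 6 kept their order relative to Mir132 in both libraries. Mirlet7d, at 25896 ± 8342 CPM, was the one of the 6 whose mean lay within the summed SDs of Mir132. Per hairpin base, Mir132 averaged 518 ± 20.8 CPM (SD, n = 2) and took rank 6, below Mirlet7i at 594 and above Mir744 at 437.

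For Mir212, the mean rank was 93, and the means of all 6 neighbours in level lay within the summed SDs. Above it were Mir376a at 1388 ± 734, Mir154 at 1348 ± 415 and Mir341 at 1314 ± 609 CPM. Below it were Mir540 at 1283.2 ± 0.279, Mir129-2 at 1252 ± 669 and Mir667 at 1165 ± 333 CPM. Mir129-2 alone of the 6 kept its order relative to Mir212 in both libraries, so the place of Mir212 in this stretch of the ranking is not resolved by 2 libraries. Per hairpin base, Mir212 averaged 14.2 ± 7.06 CPM (SD, n = 2) and took rank 92.

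**Figure D3:**
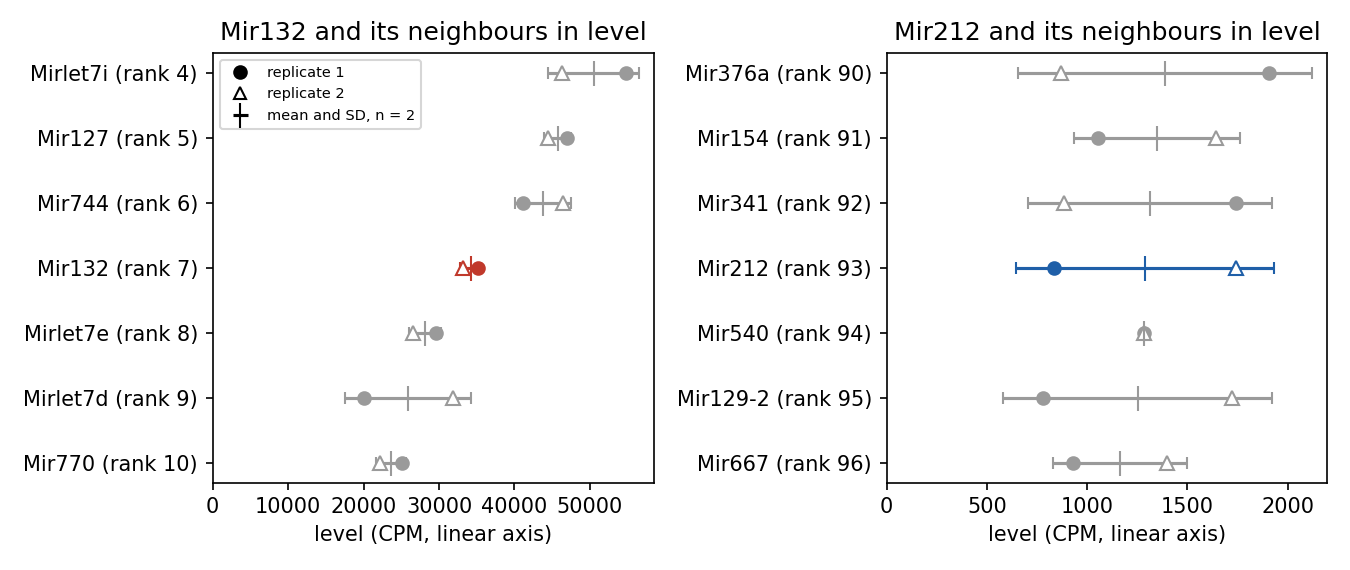
Levels in CPM on linear axes for Mir132 (left) and Mir212 (right) with the 3 genes above and below each in mean level. Circles are replicate 1, triangles replicate 2, ticks and bars the mean and SD of 2 libraries; the 2 values of Mir132 nearly coincide, while those of Mir212 span 834 to 1742 CPM and overlap those of all 6 neighbours.

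Mir212 resembled Mir129-2, a neuronal microRNA gene, most closely over the 2 libraries. Likeness was the Euclidean distance of log2(CPM + 1), for which a smaller value is closer. Mir129-2, at 779 and 1726 CPM in replicates 1 and 2, had a distance of 0.0981 from Mir212. It was followed by Mir154 at 0.35 and Mir667 at 0.35. For Mir132 the closest were Mirlet7e at 0.40, Mir744 at 0.53 and Mir127 at 0.59. With 2 libraries such a distance is set mainly by the level. Mir129-2 has a second locus, Mir129-1, so its count can leave out reads placed at several loci and its level may be too low.

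The ratio of the 2 genes, which needs no library scaling, differed between the libraries. Mir132 had 42.2 times the counts of Mir212 in replicate 1 (95% counting interval 40.5 to 43.9) and 19.1 times in replicate 2 (18.6 to 19.6). Mir212 thus made up 2.32% of the pair's counts in replicate 1 (exact binomial 95% interval 2.23 to 2.41) and 4.98% in replicate 2 (4.86 to 5.11). The ratio was 2.21-fold larger in replicate 1 (interval 2.11 to 2.32; two-sided Fisher's exact test, p = 1.07e-249, unadjusted, 1 test). That p compares the reads of 2 libraries and not conditions, and it has no replicate check. Because Mir132 dominates the sum, the pair together held a similar 3.60% and 3.49% of microRNA gene counts by library totals. Unlike the ratio, this likeness of the libraries depends on the scaling. Per hairpin base the mean level of Mir132 was 36.6 times that of Mir212.

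Between the libraries, Mir212 differed by more than most well-counted genes and Mir132 by less. Log2 ratios set replicate 2 over replicate 1 with TMM-scaled library sizes, which moved every gene by -0.23 relative to library totals. The ratio of Mir212 was 0.83 (95% counting interval 0.77 to 0.90), or 1.78-fold higher in replicate 2 (exact binomial test with Benjamini-Hochberg adjustment, adjusted p = 2.76e-135). With library totals it was 1.06, or 2.09-fold. The ratio of Mir132 was -0.31 (interval -0.32 to -0.30), or 1.24-fold higher in replicate 1, and with library totals it shrank to -0.082, or 1.06-fold. Both genes were called at an adjusted p under 0.05 in opposite directions, but so were 56.5% of 496 genes tested, 30.6% toward replicate 1 and 25.8% toward replicate 2. Of the called genes, 45.7% were higher in replicate 2, and 63.8% with library totals.

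Among 231 genes averaging 50 CPM or more, the median absolute log2 ratio was 0.42. Of these, 155 (67.1%) were further apart than Mir132 and 43 (18.6%) further apart than Mir212. The difference of Mir132 was thus smaller than that of the median gene, and the difference of Mir212 larger.

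**Figure D4:**
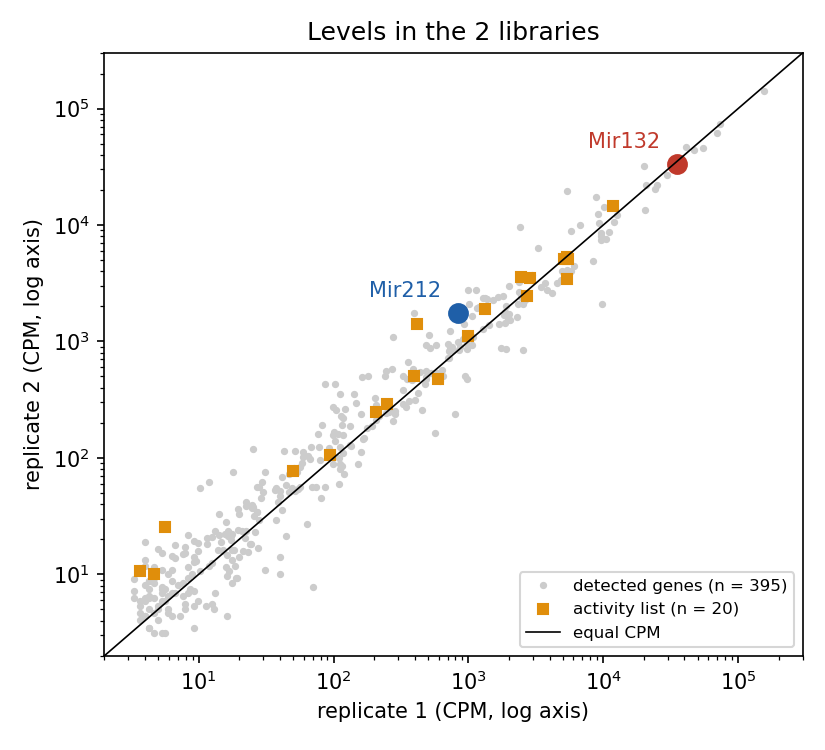
Levels in replicate 1 against replicate 2, both in CPM on log axes, for 395 detected genes (grey), 20 detected genes of the activity list described in the text (orange squares), Mir132 (red) and Mir212 (blue). The line marks equal CPM; Mir132 lies near it and Mir212 above it, at 834 and 1742 CPM.

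Unequal levels of neighbouring microRNA genes were common, and the pair was on the unequal side without being extreme. Pairs were adjacent microRNA genes on one strand with starts within 1000 bases and at least 10 counts in each library. There were 54 such pairs of 93 genes, many sharing a gene or a cluster. By mean CPM, Mir132 exceeded Mir212 26.5-fold, an absolute log2 ratio of 4.73 against a median of 2.64 (6.25-fold) over the pairs. The pair ranked 13 of 54, and per hairpin base it ranked 8, both by counts without reads placed at several loci.

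The largest ratios were 197-fold for Mir487b and Mir539, 112-fold for Mir323 and Mir758, and 83.8-fold for Mir29a and Mir29b-1. Genes with a copy of the same mature arm elsewhere, such as Mir29b-1 with Mir29b-2, can lose reads placed at several loci. Ratios of pairs that hold such genes may be distorted, and how far this moved the ranking was not tested. The smallest were 1.07-fold for Mir679 and Mir1193, 1.56-fold for Mir494 and Mir679, and 1.60-fold for Mir181d and Mir181c. Next to the pair in this order stood Mir411 and Mir299a at 26.6-fold and Mir99a and Mirlet7c-1 at 22.1-fold. The log2 ratio within the Mir132 and Mir212 pair differed by 1.15 between libraries, against a median of 0.76 over the pairs, and 13 of the other 53 pairs differed by more.

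**Figure D5:**
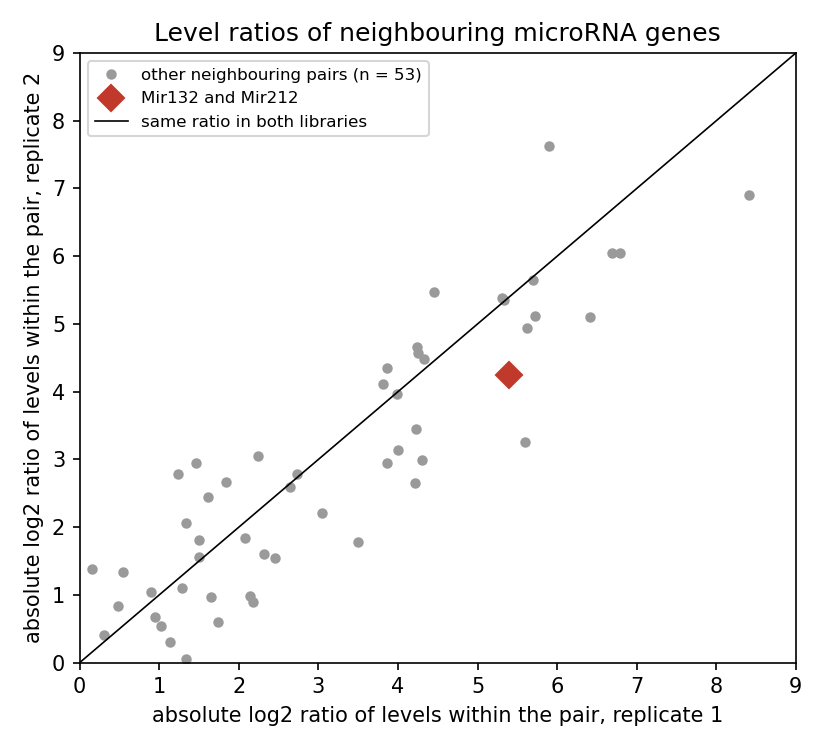
Absolute log2 ratio of the levels within each pair of neighbouring microRNA genes, replicate 1 on the horizontal and replicate 2 on the vertical axis, for Mir132 and Mir212 (red diamond) and 53 other pairs (grey). The line marks the same ratio in both libraries; the diamond lies below it, at 5.40 and 4.25.

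Beside a chosen list of microRNA genes known to respond to neuronal activity or to act at synapses, Mir132 had the highest gene count and Mir212 was mid-list. These places hold for the list only, which is not complete and was chosen with earlier results of these data known. The list holds 21 other genes, of which 20 were detected and Mir96 had 0 counts in both libraries. Their median was 911 CPM, below Mir212. None exceeded Mir132 and 9 exceeded Mir212. The list includes copies with the same mature arm, such as Mir128-1 and Mir128-2, which can lose reads placed at several loci. Their levels and the list's share may therefore be too low beside Mir132. Mir128-1, a regulator of neuronal excitability, was at 13186 ± 1882 CPM, Mir137, linked to synaptic vesicle genes, at 5340 ± 2.99 CPM, and Mir29a, which targets cytoskeletal genes of dendritic spines, at 5296 ± 287 CPM (SD, n = 2 each). Their 20 detected members together held 4.56% of counts in replicate 1 and 4.92% in replicate 2, against 3.52% and 3.32% for Mir132 alone.

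Genes of the activity list were called in both directions between the libraries, and how many each way depended on the scaling. Of 20 genes tested with TMM, 14 (70%) were called, 6 higher in replicate 1 and 8 higher in replicate 2, beside 56.5%, 30.6% and 25.8% of all 496 genes. Their median log2 ratio was 0.060 against 0.0058 over all genes. With library totals, a count by list added after seeing the data, 17 were called, 4 higher in replicate 1 and 13 in replicate 2, against 102 and 180 of all genes, and the medians were 0.29 and 0.23. Mir381, which belongs to the activity-induced cluster at Dlk1-Dio3, was at 419 CPM in replicate 1 and 1404 in replicate 2 (log2 ratio 1.52). Mir379 of the same cluster was at 5374 and 3417 CPM (log2 ratio -0.88). Copies with the same mature arm, such as Mir138-1 and Mir138-2, can lose reads to the class placed at several loci, so their levels here may be too low.

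Lists of cell types gave the setting of these values. The neuron list of 13 genes held 2.91% and 3.37% of counts in replicates 1 and 2. This was below Mir132 alone in replicate 1 and just above it in replicate 2. Of the list, 10 genes were detected, and the 3 Mir124a genes, which are near-identical copies, had 0 to 9 counts per library. Other copies in the list, such as Mir128-1 and Mir128-2 or Mir138-1 and Mir138-2, can also lose reads placed at several loci. The share of neuronal microRNAs may thus be too low beside Mir132. Oligodendrocyte genes held 0.366% and 0.562%, microglia and immune genes 0.277% and 0.234%, and the endothelial gene Mir126a 0.571% and 0.884%. Red blood cell, liver and muscle genes each held under 0.01%, with Mir1a-1 and Mir133a-1 at 0. Calls between the libraries were common in these lists, as they were over all genes, of which 30.6% were called higher in replicate 1 and 25.8% in replicate 2. Of 11 neuron genes tested, 4 were called higher in replicate 1 and 5 in replicate 2. With library totals the counts were 1 and 5, beside 102 and 180 of all 496 genes. The median log2 ratios with library totals were 0.29 for the neuron genes and 0.23 over all genes. The 2 oligodendrocyte genes and Mir126a were called higher in replicate 2, as was Mir212, and the 4 microglia and immune genes higher in replicate 1. Of these 4, Mir146, at 714 and 717 CPM, turned direction with library totals and was no longer called. The part of tissue makeup in the values of Mir212 was not tested. Fewer cells of a type and less RNA per cell cannot be told apart in bulk tissue.

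On chromosome 11, 137 microRNA genes were counted and 27 were detected. Mir132 ranked 2 among them, with 37.4% of that chromosome's counts in replicate 1 and 30.0% in replicate 2. Mir212 ranked 7, with 0.887% and 1.57%.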

How the data were processed

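The authors deposited, per the file headers of their accompanying notes, tables of read counts per microRNA gene on mm10 with GENCODE M21, each from 1 FASTQ file. Which aligner and counter they ran is not given in the sources used here. All main results used the own-strand column, whose role was read from the values. Unmapped, several-loci, no-feature and ambiguous classes were left out of library sizes. Names and positions came from M21. TMM factors (edgeR 4.0.16) used genes with at least 10 counts in total. The same genes entered a two-sided exact binomial test of the libraries, Benjamini-Hochberg adjusted over 496 genes. That test was tried on simulated counts with counting error and set fold changes only. The simulation thus does not cover other spread between libraries. DESeq2 1.42.0 size factors, library totals, the either-strand column, thinning to equal depth, other count minimums and pair distances, and leaving out each replicate were alternatives. Folding used RNAfold 2.7.2. Python 3.11.15 and scipy 1.17.1 were used. The labels give no batch.

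The members and gene lists were chosen with earlier results of these data known. Named genes were the members, the 3 above and below each in level, the 3 nearest over both libraries, up to 3 highest of the activity list, the highest of each cell type list, and the most and least unequal neighbouring pairs with those next to the members. Mir381, Mir379, Mir96, Mir138-1, Mir138-2, Mir146, the Mir124a genes, Mir1a-1 and Mir133a-1 were named after their values were seen.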

Additional observations from a re-analysis of the deposited data

How the results depend on the processing

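Both log2 ratios between replicates kept their direction and their call under all 5 alternatives tried for each, from -0.32 to -0.082 for Mir132 and from 0.83 to 1.06 for Mir212. With either-strand counts the mean of Mir132 was 36610 CPM, because that column assigns fewer reads to genes in total. With all reads as the denominator the means were 11981 for Mir132 and 449 for Mir212, on a scale of all reads. Leaving out a replicate gave 33205 to 35150.5 CPM for Mir132, 834 (without replicate 2) to 1742 CPM (without replicate 1) for Mir212, and a count ratio of 19.1 (without replicate 1) to 42.2 (without replicate 2). The share of neighbouring pairs less unequal than Mir132 and Mir212 was 75.9%, ranged from 68.5% to 81.5% when a replicate was left out, and was 85.2% per hairpin base, a setting chosen after seeing the data. Between 259 and 282 genes were called under the alternatives. Of the 20 activity genes tested, 14 were called, and 17 with library totals and 15 with DESeq2 size factors, both added after seeing the data for this list. No paired analysis was possible because there is 1 group. At 2515 counts or more per library, counting error is small beside the spread between the 2 libraries for both genes.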
